A study of Mus musculus with 6 samples.

Results

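The genes described here make, lengthen and desaturate fatty acids: Acly, Acaca, Fasn, Scd1, Scd2, Elovl1, Elovl5, Elovl6, Fads1 and Fads2. They were taken by gene name from a table of 54532 genes, and all 10 were present, once each. RNA was sequenced from CD8 T cells of mouse spleen and lymph nodes that had been stimulated in vitro for 3 days with beads carrying antibodies to CD3 and CD28. The 3 KO libraries carried the label PTPMT1 KO and the 3 WT libraries the label WT. Ptpmt1 encodes a phosphatase of the mitochondrial inner membrane that acts in cardiolipin synthesis. All 6 libraries shared the tissue, the cell type and the stimulation. The labels used here give no age, strain, deleted exon or driver of the deletion, and do not state whether each replicate was a separate animal. The p-values therefore measure the spread between these libraries, which may be partly technical.

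A T cell that starts to divide needs new membrane, and much of its fatty acid is made in the cytosol from citrate exported by mitochondria. ATP citrate lyase (Acly) splits citrate to acetyl-CoA, acetyl-CoA carboxylase (Acaca) makes malonyl-CoA, and fatty acid synthase (Fasn) joins these units into palmitate. Elongases of the ELOVL family add carbon units in the endoplasmic reticulum, stearoyl-CoA desaturases (Scd1, Scd2) introduce the first double bond, and the desaturases Fads1 and Fads2 act on polyunsaturated chains. Many of these genes are classical targets of the transcription factor SREBP-1, the product of Srebf1.

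Values are FPKM, read counts scaled for gene length and by 1 factor per library, so that levels can be compared between genes. The deposited library factors were not in proportion to the read totals (see the processing section). Genotypes were compared with limma on log2(FPKM + 0.5) over 12654 genes whose mean was 0.5 FPKM or more, and a gene was called at a Benjamini-Hochberg adjusted p under 0.05. All 10 genes passed that filter. Reads rebuilt from the FPKM totalled 14932604 to 16819913 per library, of which the 10 genes held 12932 to 22385 in KO and 17144 to 26048 in WT. Ptpmt1 had 1.0004, 1.58 and 1.504 FPKM in KO replicates 1 to 3, against 3.75, 3.84 and 4.13 in WT (limma adjusted p = 0.0884, and 0.0344 without KO replicate 3). Its exons share 1657 bases with Kbtbd4 on the opposite strand. The 6 T cell and CD8 markers summed to 828 to 1528 FPKM in KO and 1328 to 1719 FPKM in WT. KO replicate 3 stood apart: it had 0 reads of Xist and 1837 of the Y-linked Ddx3y, where the other 5 libraries had at least 3513 and 0. Its reads were 2.38% mitochondrial, against 7.53% in KO replicate 2 and 3.38% to 4.76% in the remaining libraries. Markers of gamma-delta T cells summed to 27.4, 64.3 and 174 FPKM in KO replicates 1 to 3, and to 29.5, 26.4 and 52.8 FPKM in WT. Granulocyte and mast cell markers summed to 12.8, 9.21 and 43.2 FPKM in KO replicates 1 to 3, and to 7.98, 5.20 and 14.2 FPKM in WT. B cell markers summed to 13.4 to 15.2 FPKM in KO and 18.7 to 25.1 FPKM in WT. The part of these differences in the results below was not tested.

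No gene of the set was called between KO and WT, where 0.0395% of all genes tested were. At an unadjusted p under 0.05, limma gave 2 of the 10, Scd2 and Elovl6, both lower in KO. The share over all genes was 21.8%, and 10.2% counting only genes lower in KO, so this count is no result about the set. The KO and WT libraries did not overlap for 3 of the 10, Scd2, Elovl6 and Fads1, all lower in KO. Over all genes 27.8% did not overlap, with KO lower for 13.3% and KO higher for 14.5%. The log2 fold changes of the 10 genes lay between -0.53 and 0.25, with 4 above 0 and 6 below. Their median was -0.05, beside 0.03 over all genes tested. With each library rescaled to the same read total, those medians were -0.17 and -0.10. Counting all genes at an unadjusted p under 0.05, KO was the higher genotype for 52.9% in the main test and 36.5% after that rescaling. In these bulk samples, fewer cells of a type and less RNA per cell cannot be told apart.

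**Figure D1:**
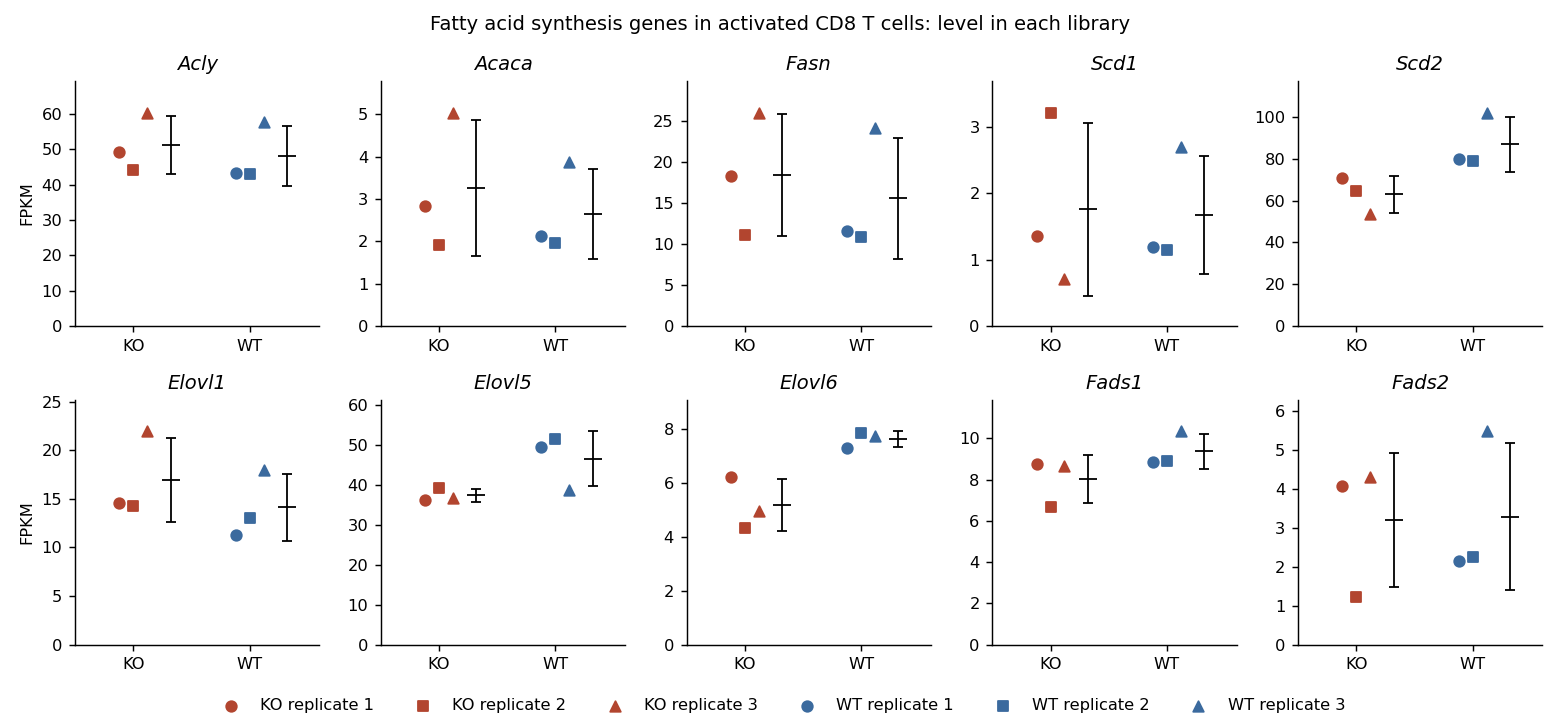
Level of each of the 10 genes in FPKM (vertical axes from 0, a separate scale for each gene) in the 3 KO libraries (red, left) and the 3 WT libraries (blue, right). Marker shapes give the replicate number, and the bars beside them show the mean and SD. Elovl6 and Scd2 lie lower in each KO library, while Fasn, Acaca and Fads2 vary more within a genotype than between genotypes.

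The enzymes that build palmitate showed more spread within each genotype than difference between them. Fasn (chr11:120805846-120824547 on the minus strand in mm10, GENCODE M21) had 18.4, 11.1 and 26.0 FPKM in KO replicates 1 to 3, against 11.7, 10.9 and 24.2 FPKM in WT. KO and WT overlapped, and the highest library of each was replicate 3. The means were 18.5 ± 7.47 FPKM in KO and 15.6 ± 7.45 FPKM in WT (SD, n = 3 each). The log2 fold change was 0.25 (SE 0.399, 95% interval -0.69 to 1.20; limma adjusted p = 0.743), and it was -0.028 without KO replicate 3. The interval spans 0.62-fold to 2.29-fold, so differences within that span remained compatible with these 3 libraries a group. Fasn was counted from 1593 to 5142 reads per library, and counting error was thus small beside the spread between libraries.

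Acaca, which commits acetyl-CoA to fatty acid synthesis, had 2.82, 1.91 and 5.03 FPKM in KO, against 2.12, 1.96 and 3.88 FPKM in WT. Replicate 3 was again the highest of each genotype, and the groups overlapped. For Acaca the log2 estimate was 0.22 (SE 0.364, limma adjusted p = 0.759), or -0.11 without KO replicate 3. Of the 50-base windows in its annotated transcripts, 30.4% also occur in transcripts of other genes, most of them in Gm5182, which had 86 to 305 reads per library. How reads with several matches were assigned is not given in the sources used here, so the level of Acaca is less certain than that of Acly or Fasn, which share 0% of such windows. Acly had 49.2, 44.2 and 60.2 FPKM in KO and 43.4, 42.9 and 57.8 FPKM in WT. The Acly estimate was 0.09 on the log2 scale (SE 0.200, limma adjusted p = 0.813), or -0.053 with libraries rescaled to equal read totals.

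The stearoyl-CoA desaturases differed in level and in pattern. Scd2 (chr19:44293674-44306864, plus strand, mm10), the most abundant of the 10 genes, had 70.6, 64.7 and 53.4 FPKM in KO, against 79.7, 78.9 and 102 FPKM in WT. Each KO library lay lower than each WT library, with KO replicate 3 the lowest library and WT replicate 3 the highest. The means were 62.9 ± 8.74 FPKM in KO and 86.8 ± 13.1 FPKM in WT (SD, n = 3 each). The log2 fold change was -0.46 (SE 0.192, 95% interval -0.92 to -0.01), lower in 3 of 3 KO libraries. It missed the threshold over all genes (limma adjusted p = 0.223), and the p of an exact permutation test, 2-sided, was 0.1, the least possible for 3 against 3 libraries. Leaving out 1 library at a time gave -0.55 to -0.34, and leaving out replicate 3 of both genotypes gave -0.23. The unadjusted limma p of Scd2 was 0.0476 in the main test and 0.0571 to 0.131 with 1 library left out.

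Scd1, the liver and adipose form of the enzyme, was present at a far lower level, with 1.35, 3.21 and 0.710 FPKM in KO and 1.19, 1.14 and 2.71 FPKM in WT. KO replicate 2 and WT replicate 3 were high, and KO replicate 3 was the lowest of all 6. The estimate was -0.03 on the log2 scale (SE 0.466, limma adjusted p = 0.976), and its sign differed with the library left out. Scd1 was counted from only 62 to 230 reads per library. Of its 50-base windows, 4.56% are shared with other genes, and of those of Scd2 3.97%, mostly among the Scd genes themselves. Defining markers of adipocytes were at or near 0: of 8 listed, Plin1, Cidec, Lep, Retn and Cfd had no reads in any library, and the 8 summed to at most 0.578 FPKM in KO and 0.0447 FPKM in WT.

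The elongases went separate ways. Elovl6 (chr3:129532355-129638495, plus strand), which lengthens palmitate to stearate, had the largest estimate of the set. It had 6.21, 4.31 and 4.96 FPKM in KO, against 7.31, 7.84 and 7.74 FPKM in WT. The WT libraries lay close together and each KO library was lower than all of them. The means were 5.16 ± 0.966 FPKM in KO and 7.63 ± 0.279 FPKM in WT (SD, n = 3 each). The log2 fold change was -0.53 (SE 0.173, 95% interval -0.94 to -0.13), a KO level of 0.690 times that in WT. It missed the threshold over all genes (limma adjusted p = 0.155; unadjusted p = 0.0174), and the exact 2-sided permutation p was 0.1. The estimate lay between -0.66 and -0.42 with any 1 library left out, and was -0.67 with libraries rescaled to equal read totals. Elovl6 was counted from 364 to 874 reads per library, and 3.98% of its 50-base windows are shared with other genes.

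Elovl5, which lengthens polyunsaturated chains, had 36.0, 39.2 and 36.5 FPKM in KO, against 49.3, 51.4 and 38.6 FPKM in WT. WT replicates 1 and 2 lay above all KO libraries, and WT replicate 3 lay within the KO range. On the log2 scale KO minus WT was -0.30 (SE 0.170, limma adjusted p = 0.338), or -0.43 without WT replicate 3 (adjusted p = 0.188). Elovl1, which makes very long saturated chains, had 14.6, 14.3 and 21.9 FPKM in KO and 11.3, 13.0 and 18.0 FPKM in WT. The Elovl1 groups overlapped, with a log2 fold change of 0.25 (SE 0.246, limma adjusted p = 0.577). It was 0.058 without KO replicate 3, 0.11 without WT replicate 1 and with equal read totals, and 0.44 without WT replicate 3. Its exons share 53 bases with Cdc20 on the opposite strand, a gene with 1647 to 2719 reads per library, and the strand setting of the counting is not given in the sources used here.

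Fads1, the delta-5 desaturase, had 8.75, 6.68 and 8.64 FPKM in KO, against 8.85, 8.91 and 10.3 FPKM in WT. The groups did not overlap, but KO replicate 1 and WT replicate 1 differed by little. The Fads1 estimate was -0.22 on the log2 scale (SE 0.168, limma adjusted p = 0.485), or -0.098 without KO replicate 2. Fads2, the delta-6 desaturase, had 4.09, 1.21 and 4.30 FPKM in KO and 2.15, 2.25 and 5.48 FPKM in WT. The groups overlapped, and KO replicate 2 was the lowest library. That of Fads2 was -0.07 (SE 0.492, limma adjusted p = 0.950), from 24 to 145 reads per library. Leaving out KO replicate 2 gave 0.42, and leaving out KO replicate 3 gave -0.33. The deposited gene lengths of Fads1 and Fads2 were 0.718 and 0.458 times the exon length in GENCODE M21, so their FPKM refer to a shorter gene model. For the other 8 genes that ratio was between 0.989 and 1.

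**Figure D2:**
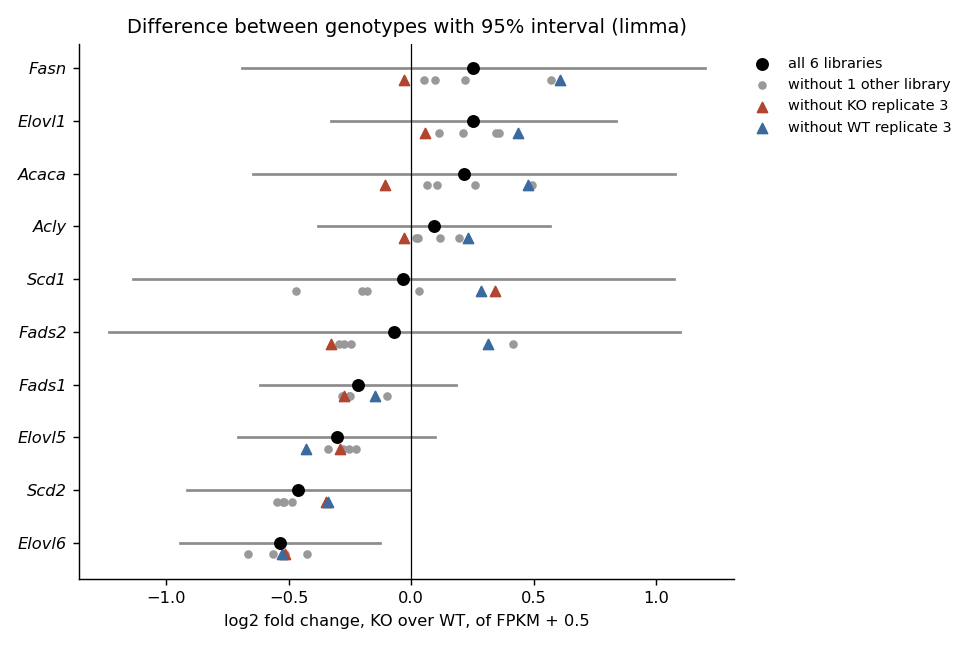
Log2 fold change of KO over WT for each gene (horizontal axis, log2 scale of FPKM + 0.5), with the limma estimate from all 6 libraries (black) and its 95% interval (grey line). Small markers show the estimate with 1 library left out, triangles for replicate 3 of each genotype. The intervals of Elovl6 and Scd2 lie below 0, and the estimates for Acly, Acaca, Fasn, Scd1 and Fads2 change sign with the library left out.

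By mean deposited FPKM over the 6 libraries the genes ran from Scd2 through Acly, Elovl5, Fasn, Elovl1, Fads1, Elovl6, Fads2 and Acaca to Scd1. The places of Fads1 and Fads2 rest on their shorter deposited lengths. With the same reads, the GENCODE M21 exon lengths would lower both levels, but reads were not recounted on that gene model. The ranges over libraries overlapped between Scd2 and Acly, between Acly and Elovl5, and between Fasn and Elovl1. Elovl5 (36.0 to 51.4 FPKM) did not overlap with Fasn (10.9 to 26.0 FPKM), nor Elovl1 (11.3 to 21.9 FPKM) with Fads1 (6.68 to 10.3 FPKM). From Fads1 down to Scd1, each gene overlapped with the next in the order.

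A shared pattern across libraries was larger than any genotype difference for part of the set. Fasn, Acaca, Fads2, Acly and Elovl1 were each highest in replicate 3 of both genotypes. Both replicates 3 were the highest of their genotype for 5 of the 10 genes and for 23.0% of all genes tested. WT replicate 3 was the highest WT library for 8 of the 10 genes, against 40.0% of all genes, and KO replicate 3 the highest KO library for 5 of 10, against 42.0%. Within genotypes, the SD of log2 values was 0.61 for Fasn, 0.53 for Acaca and 0.76 for Fads2, where the median over all genes was 0.30. For Elovl1 and Acly, which shared the pattern, it was 0.34 and 0.23, and for Scd1, which did not, it was 0.69. For Elovl5, Elovl6 and Fads1 it was 0.16 to 0.17. Scd2 showed another pattern, with the highest value in WT replicate 3 and the lowest in KO replicate 3.

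**Figure D3:**
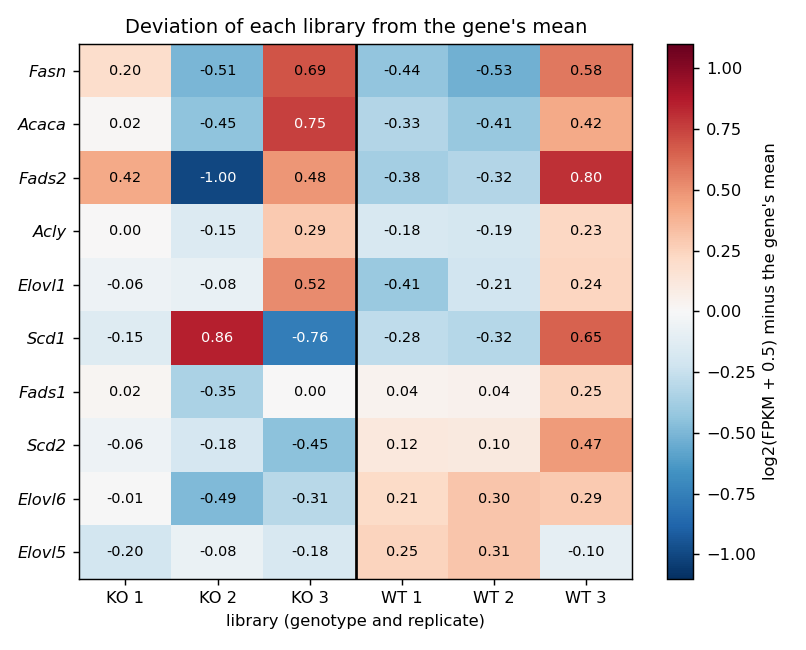
Deviation of log2(FPKM + 0.5) in each library from the mean of the gene, for the 3 KO libraries (left of the line) and the 3 WT libraries (right). Red is above and blue below the mean. Fasn reaches 0.69 in KO replicate 3 and 0.58 in WT replicate 3, whereas Elovl6 is between -0.49 and -0.01 in KO and between 0.21 and 0.30 in WT.

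Likeness to Fasn was measured as the root mean square difference of centred log2 values over the 6 libraries, among 11214 genes whose mean was 1 FPKM or more. Ampd2, Rbm19 and AI506816 were nearest, at 0.086, 0.094 and 0.094, where the median gene was at 0.61. Acaca came in seventh place at 0.13, while Fads2 was at 0.27, Elovl1 at 0.29 and Acly at 0.32. Nearest to Elovl6 were Srsf5, a splicing factor, Cntrl and Fcho1, at 0.050, 0.072 and 0.080, with the median gene at 0.44. Scd2 was at 0.18 from Elovl6, Fads1 at 0.19 and Elovl5 at 0.25. These distances are descriptions over 6 libraries and carry no test.

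Promoters are shown for Fasn, which carried the pattern shared across libraries, and for Elovl6 and Elovl5, elongases with lower mean levels in KO. Each is the 250 bases before the transcription start in RefSeq on GRCm38.p6, at chr11:120824548-120824797 (minus strand) for Fasn, chr3:129532136-129532385 (plus strand) for Elovl6 and chr9:77917115-77917364 (plus strand) for Elovl5. Capitals mark CCAAT, the site of the factor NF-Y, or its reverse complement ATTGG.
Fasn: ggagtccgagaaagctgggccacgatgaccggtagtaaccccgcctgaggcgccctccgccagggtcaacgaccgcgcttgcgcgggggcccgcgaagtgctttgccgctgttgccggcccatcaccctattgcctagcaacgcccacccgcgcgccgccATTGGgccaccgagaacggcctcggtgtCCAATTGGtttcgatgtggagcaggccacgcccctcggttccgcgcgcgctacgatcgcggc
Elovl6: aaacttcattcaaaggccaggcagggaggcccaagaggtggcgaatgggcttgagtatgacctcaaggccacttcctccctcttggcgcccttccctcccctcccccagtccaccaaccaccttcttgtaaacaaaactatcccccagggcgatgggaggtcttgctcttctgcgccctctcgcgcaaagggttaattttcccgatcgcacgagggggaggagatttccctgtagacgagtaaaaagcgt
Elovl5: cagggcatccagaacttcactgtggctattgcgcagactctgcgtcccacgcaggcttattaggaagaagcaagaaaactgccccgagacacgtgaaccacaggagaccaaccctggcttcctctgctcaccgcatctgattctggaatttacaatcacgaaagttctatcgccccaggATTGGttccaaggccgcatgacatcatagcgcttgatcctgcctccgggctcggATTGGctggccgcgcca
CCAAT was found on either strand at 3 positions for Fasn, a pair of them overlapping each other, at 0 for Elovl6 and at 2 for Elovl5. It occurs in 33.9% of all 32851 promoter windows of this length. The sterol regulatory element TCACNCCAC, which SREBP binds, occurs in 1.05% of all windows and in none of the 8 windows found for 7 of the genes. Scd1, Scd2 and Fads1 had no window. That of Acaca, at chr11:84195188-84195437, lies inside the gene, which starts at 84129672, so the region before that start was not searched. That of Fads2, at chr19:10101504-10101753, lies almost wholly inside the gene, which starts at 10101746 on the minus strand. The region before the Fads2 start was therefore hardly searched. For Elovl1 a window at chr4:118429451-118429700 also lies inside the gene, while its other window lies directly before the start at 118428093. The E-box CACGTG, in 6.02% of all windows, was found in that of Elovl5 only among the 8. Such matches describe the letters in these windows and nothing more.

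Ratios of 2 genes within a library, taken on FPKM + 0.5 and so not fully free of the scaling, were compared for 6 pairs by exact 2-sided permutation tests over 3 against 3 libraries. Elovl6 relative to Elovl1 was the 1 ratio of the 6 whose genotypes did not overlap, and at a pseudocount of 1 they did overlap (exact permutation p = 0.2). Its log2 value was -1.17, -1.62 and -2.04 in KO replicates 1 to 3, against -0.60, -0.70 and -1.17 in WT, a difference of -0.79. KO replicate 1 and WT replicate 3 were almost equal. The exact permutation p was 0.1, the smallest possible, and 0.6 when adjusted over the 6 ratios. Leaving out 1 library gave differences between -1.01 and -0.57. For Fasn relative to Acaca the log2 ratio was 2.34 ± 0.140 in KO and 2.31 ± 0.162 in WT (SD, n = 3 each), so these genes kept nearly the same proportion while their levels varied. Scd1 relative to Scd2 differed by 0.43, Elovl6 relative to Elovl5 by -0.23, Fasn relative to Acly by 0.16 and Fads1 relative to Fads2 by -0.15. Leaving out 1 library gave 0.017 to 0.69 for Scd1 to Scd2 and -0.38 to -0.084 for Elovl6 to Elovl5. All of these pairs had overlapping groups and exact permutation p between 0.4 and 1.

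Elongation takes further enzymes besides the ELOVL condensing step, and desaturation draws electrons from cytochrome b5. The list of 9 partner genes also held Cyb5b, a mitochondrial form of cytochrome b5. Of the 9, 8 passed the filter and 0 were called by limma over all genes. At an unadjusted p under 0.05, 5 of the 8 were higher in KO and 0 lower, where 11.5% of all genes tested were higher. Hsd17b12, the 3-ketoacyl-CoA reductase of the cycle, had 29.4, 34.3 and 28.5 FPKM in KO, against 17.4, 18.5 and 22.6 FPKM in WT. All KO libraries lay above all WT libraries, with a log2 fold change of 0.65 (SE 0.169, limma adjusted p = 0.118). Hacd3, a 3-hydroxyacyl-CoA dehydratase, had 22.6, 26.4 and 28.7 FPKM in KO and 13.8, 14.7 and 19.8 FPKM in WT (log2 fold change 0.68, SE 0.192, limma adjusted p = 0.130). Its relative Hacd2 had 4.75 ± 0.367 FPKM in KO and 3.47 ± 0.313 FPKM in WT (SD, n = 3 each), and Hacd1 had 1.11 ± 0.410 FPKM in KO and 0.266 ± 0.224 FPKM in WT. Hacd1 was counted from only 3 to 52 reads per library, and its WT mean was under the filter of 0.5 FPKM. With the filter at a mean FPKM of at least 1, 7 partners were tested and 4 were higher at an unadjusted p under 0.05. In that fit 23.1% of all genes reached this p in either direction. Cyb5b, the cytochrome b5 of the mitochondrial outer membrane, had 39.3 ± 2.51 FPKM in KO and 27.9 ± 5.48 FPKM in WT (SD, n = 3 each).

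The other 3 partners had estimates near or below 0, with overlapping groups. Tecr, which catalyses the last step of the cycle, had 31.1 ± 3.94 FPKM in KO and 35.6 ± 4.82 FPKM in WT (SD, n = 3 each). The microsomal Cyb5a had 90.4, 123 and 35.7 FPKM in KO and 88.9, 71.6 and 56.8 FPKM in WT. Cyb5a and its reductase Cyb5r3 had log2 fold changes of 0.05 and 0.04. The median of the 8 partner genes was 0.45. Without KO replicate 3 it was 0.53, with 4 genes at an unadjusted p under 0.05 and 1 called, Hsd17b12 (limma adjusted p = 0.0480). In that fit 13.7% of all genes were called and 19.5% were higher at an unadjusted p under 0.05, so 1 call among 8 is near the background. Without replicate 3 of both genotypes 3 were called, Cyb5b, Hsd17b12 and Hacd3, where 14.7% of all genes were. With libraries rescaled to equal read totals 2 remained at an unadjusted p under 0.05, Hsd17b12 and the low-count Hacd1. Without KO replicate 1 there were also 2, Hsd17b12 and Hacd3. The shares of all genes higher in KO were then 6.71% and 6.76%.

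**Figure D4:**
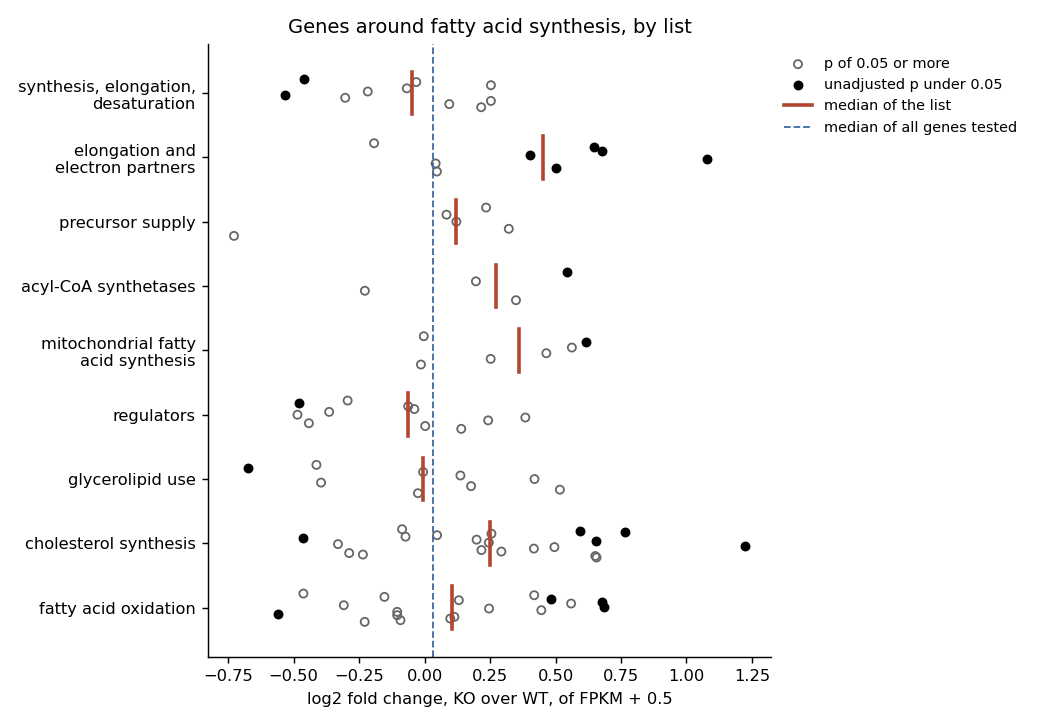
Log2 fold change of KO over WT (horizontal axis, log2 scale of FPKM + 0.5) for each gene tested in the 10-gene set and in the related lists (rows). Filled points have an unadjusted limma p under 0.05, red bars mark list medians, and the dashed line marks the median of all genes tested. The partner genes of elongation and electron supply have a median of 0.45, and the 10-gene set one of -0.05.

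The 7 lists around the pathway, partners included, held 44 genes that passed the filter. None was called, with 7 higher and 2 lower in KO at an unadjusted p under 0.05, together 20.5% of the 44. Among isoforms outside the set, Elovl7 alone passed the filter, with 1.28 ± 0.266 FPKM in KO and 1.35 ± 0.617 FPKM in WT (SD, n = 3 each). Acacb, Scd3, Scd4, Elovl2, Elovl3, Elovl4, Fads3 and Fads6 had mean levels under that floor. Of 5 genes of precursor supply none had an unadjusted limma p under 0.05 in the main test, and 0 were called over all genes. G6pdx, which supplies NADPH through the pentose phosphate pathway, had 23.0, 22.4 and 24.2 FPKM in KO, against 18.1, 17.6 and 19.7 FPKM in WT. All 3 KO libraries lay above WT, at a limma adjusted p of 0.237. Pgd, the next NADPH-producing enzyme of that pathway, had 17.6 ± 3.25 FPKM in KO and 16.7 ± 4.05 FPKM in WT (SD, n = 3 each). Acss2 had the largest estimate of this list, -0.73 on the log2 scale (limma adjusted p = 0.292). It had 2.16, 3.78 and 1.62 FPKM in KO and 5.46, 5.52 and 2.56 FPKM in WT, and the groups overlapped. Acss2 reached an unadjusted limma p under 0.05, lower in KO, in some alternatives, among them equal read totals and the replicate block. G6pdx did so, higher in KO, in others, among them without WT replicate 3. Of 4 acyl-CoA synthetases, which activate fatty acids for use, Acsl5 alone had an unadjusted p under 0.05, with 53.7, 50.4 and 52.1 FPKM in KO and 34.1, 31.2 and 42.3 FPKM in WT (limma adjusted p = 0.150). With equal read totals 0 of the 4 did.

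Of the 11 regulators that passed, Srebf1 had an unadjusted p under 0.05. It had 20.2, 16.4 and 18.6 FPKM in KO, against 23.3, 24.3 and 30.2 FPKM in WT. Each KO library lay lower than each WT library, with a log2 fold change of -0.48 (SE 0.171, limma adjusted p = 0.176). The table does not separate its 1a and 1c transcripts. Srebf2, its relative for cholesterol genes, had 32.7, 25.5 and 40.2 FPKM in KO and 39.5, 39.3 and 40.2 FPKM in WT (limma adjusted p = 0.416). Insig1, which holds SREBP in the endoplasmic reticulum and is itself an SREBP target, had 25.4 ± 9.95 FPKM in KO and 21.8 ± 1.44 FPKM in WT (SD, n = 3 each). Prkaa1, a catalytic subunit of the kinase AMPK that inhibits acetyl-CoA carboxylase, had 11.0 ± 0.251 FPKM in KO and 11.3 ± 0.107 FPKM in WT. Without KO replicate 3, 6 regulators had an unadjusted p under 0.05, 5 of them lower in KO, and 0 were called by limma. The shares of all genes in that fit were 35% and, for those lower in KO, 15.5%. Leaving out KO replicate 2, WT replicate 2 or WT replicate 3 left 0 regulators at an unadjusted limma p under 0.05.

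Mitochondria have a separate fatty acid synthesis pathway, which supplies octanoate for lipoic acid. Of its 6 genes tested limma called 0, and 1 reached an unadjusted p under 0.05. That was Ndufab1, the acyl carrier protein, with 8.86, 9.85 and 7.92 FPKM in KO, against 4.51, 5.10 and 7.58 FPKM in WT (adjusted p = 0.174). Without replicate 3 of both genotypes 2 were called, Ndufab1 and Mecr, the reductase of the pathway, where 14.7% of all genes were. With equal read totals 0 of the 6 had an unadjusted limma p under 0.05.

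Cholesterol synthesis, which shares SREBP control, was set beside the 10 genes. Of 20 cholesterol genes tested limma called 0; an unadjusted p under 0.05 was reached by 4 genes with higher and 1 with lower values in KO, and the median log2 fold change was 0.25, beside -0.05 for the 10 genes. These 5 are 25% of the 20, beside 21.8% of all genes tested. The count was 1 without WT replicate 1, with 12.7% of all genes, and 9 without WT replicate 3, with 22.2%. With 1 library left out the median lay between 0.16 and 0.42. Idi1, of isoprenoid synthesis, had 27.1, 36.8 and 20.7 FPKM in KO and 10.3, 9.10 and 16.0 FPKM in WT (limma adjusted p = 0.107). Sqle, of the squalene step, averaged 13.1 ± 0.377 FPKM in KO and 7.74 ± 2.66 FPKM in WT, Msmo1, a sterol demethylation enzyme, 10.5 ± 2.36 FPKM in KO and 6.41 ± 0.974 FPKM in WT, and Stard4, a sterol carrier, 20.8 ± 4.87 FPKM in KO and 13.4 ± 0.869 FPKM in WT (SD, n = 3 each). Mvk, an earlier enzyme of the same pathway, had 5.79, 5.98 and 6.73 FPKM in KO and 8.45, 7.81 and 9.94 FPKM in WT (limma adjusted p = 0.166). Of 18 fatty acid oxidation genes limma called 0, with 3 higher and 1 lower in KO at an unadjusted p under 0.05 and a median of 0.11. These 4 of 18 are 22.2%, about the share of all genes. With equal read totals 0 were higher and 1 lower, and the median was -0.04. The median was -0.02 without KO replicate 2. Hadh, an enzyme of the oxidation cycle, had 14.8 ± 1.66 FPKM in KO and 10.4 ± 0.0529 FPKM in WT (SD, n = 3 each). Eci1, which handles unsaturated chains, had 22.0, 25.1 and 21.8 FPKM in KO and 11.2, 13.1 and 18.9 FPKM in WT. Etfb, of the electron transfer flavoprotein, had 8.57, 12.1 and 7.28 FPKM in KO and 5.09, 4.31 and 7.58 FPKM in WT, and its groups overlapped. The lower one was Cpt1a, which brings fatty acids into mitochondria, with 10.2, 7.66 and 8.74 FPKM in KO and 13.4, 16.9 and 10.2 FPKM in WT (limma adjusted p = 0.205). Differences between these lists were not tested.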

How the data were processed

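The authors deposited 1 table of FPKM per gene and library, with a gene length. The tools named in the submitters' processing notes are featureCounts 1.5.0-p3, HISAT2 2.0.5, DESeq2 and Trim Galore, and the build is mm10; their roles are not stated there. Libraries came from a stranded mRNA kit, per the labels' protocols. In each deposited FPKM column, dividing value times length by 1 constant per library gave whole numbers (within 0.05) for at least 99.99% of values above 0. These are the rebuilt reads. The library total behind the FPKM was 0.780 (KO replicate 2) to 1.10 (KO replicate 3) times the rebuilt reads. Relative to median-of-ratios size factors of the reads, that total varied only from 0.990 to 1.01. The deposited scaling thus followed such size factors and not the read totals. Median-of-ratios factors of the FPKM themselves were 0.998 to 1.02.

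The main test was limma 3.58.1 in R 4.3.3 (trend, 2-sided, genotype as the only term, 3 KO and 3 WT libraries) on log2(FPKM + 0.5), with p-values adjusted over all 12654 genes tested. On this scale the fold change of genes with low values is understated. The genes and lists were chosen with earlier results of these data known. All 10 genes were described. From each related list the genes at an unadjusted p under 0.05 (up to 4) were named, or the 2 of highest level. Others named, namely Hacd2, Tecr, Cyb5a, Cyb5r3, Acss2, Srebf2, Insig1, Prkaa1, Mecr and Mvk, were chosen after their values were seen. Of the table's identifiers, 54409 matched GENCODE M21 (mm10) and 123 did not. Shared windows were searched on both strands of its transcripts. Alternatives covered pseudocount, filter, scaling, variance model, sample weights, a replicate block, limma-voom on rebuilt reads and libraries left out. The limma step was tested on simulated data with the same dispersion for every gene and no deviating library. That test therefore does not cover a library that stands apart, such as KO replicate 3. Tables and figures were made in Python 3.11.15 with matplotlib 3.10.9, pandas 2.3.3 and scipy 1.17.1.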

Additional observations from a re-analysis of the deposited data

How the results depend on the processing

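No gene of the 10 was called in the main test or in any alternative except sample weights, where 3 were called (Fasn, Elovl5 and Elovl6) together with 6710 of all genes. Those weights, chosen after seeing the data because the default method did not converge, ran from 0.192 to 9.10 and rested on KO replicate 1; under them Scd1 was at 0.11, Fads2 at 0.62 and Ptpmt1 at -1.50 (log2), 4 of the 10 genes and 27 of the related genes had an unadjusted p under 0.05. The count of all genes called, 5 in the main test, was 3 at a pseudocount of 1 and with no filter, 14 without a variance trend, 1 with limma-voom, 12 with the replicate block, 2 to 1733 with 1 library left out, and 1863 without replicate 3 of both genotypes. The count of the 10 genes at an unadjusted p under 0.05, 2 in the main test, was 1 at a mean FPKM of at least 1, without the trend, with robust variances, with the replicate block and without both replicates 3, 3 with equal read totals (Scd2, Elovl5 and Elovl6, all lower in KO, as were 11.7% of all genes), and 0 to 2 with 1 library left out; the cause was not tested. For the related genes that count was 9, and it was 5 after rescaling to equal read totals, 15 without both replicates 3 and 3 to 16 with 1 library left out. Equal read totals put Acly at -0.053. Without both replicates 3, Scd1 was at 0.66, Fads2 at 0.056 and Ptpmt1 at -1.28. With 1 library left out, Ptpmt1 lay between -1.34 and -1.11, the median of the 10 genes between -0.22 and 0.26, Acly between -0.028 and 0.23, Acaca between -0.11 and 0.49, Fasn between -0.028 and 0.61, Scd1 between -0.47 and 0.34, and Fads2 between -0.33 and 0.42. The log2 ratio differences lay between -0.51 and 0.054 for Fads1 to Fads2, -0.043 and 0.13 for Fasn to Acaca, and -7.35e-05 and 0.38 for Fasn to Acly. Same-numbered libraries correlated in their deviations at 0.13, 0.067 and 0.33, and KO replicate 2 correlated best with WT replicate 1, so the replicate numbers were not taken as pairs. Depth limits Scd1 and Fads2 most.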

Other observations

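Genes that build fatty acids into glycerolipids were measured in the same libraries. Of 9 tested, 0 were called by limma over all genes and 1 had an unadjusted p under 0.05. That gene was Lpin1, a phosphatidate phosphatase, with 0.933, 1.41 and 1.83 FPKM in KO, against 2.20, 2.83 and 2.39 FPKM in WT (log2 fold change -0.68, SE 0.240; limma adjusted p = 0.176). Each KO library lay lower than each WT library. Dgat1, which completes triglyceride synthesis and was chosen after its values were seen, had 4.42 ± 0.474 FPKM in KO and 5.98 ± 0.809 FPKM in WT (SD, n = 3 each; limma adjusted p = 0.232). The median of the list was -0.01.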
